A study of Bos taurus with 6 samples.

Results

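The miRNA cluster with miR-188, miR-362, miR-500, miR-502, miR-532 and miR-660 is a group of miRNA hairpins that lie close together on the bovine X chromosome inside CLCN5, a gene for a chloride/proton exchanger of endosomes. Its members were all mature names in the count files that carry one of these numbers, whatever the letter or arm suffix, which gave 8 of 755 names: bta-miR-188, bta-miR-362-5p, bta-miR-362-3p, bta-miR-500, bta-miR-502a, bta-miR-502b, bta-miR-532 and bta-miR-660. All 8 had reads and were detected in both groups by the rule used here, reads in 2 or more of the 3 replicates. Small RNA was sequenced from granulosa cells, the steroid-producing somatic cells that line the follicle, in 3 libraries of preovulatory dominant follicles and 3 libraries of anovulatory subordinate follicles. All follicles came from Simmental heifers slaughtered on day 19 of a cycle synchronized with cloprostenol, a prostaglandin analogue, and buserelin, a GnRH analogue. The follicles were sorted by surface diameter, dominant follicles were far fewer than subordinate ones and came from the same animals, and RNA was pooled to make the libraries, so the spread between libraries is a spread between pools and may differ in meaning between the groups.

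Hairpins that are transcribed together are cut from one long primary transcript by Drosha and then by Dicer, so a cluster has the means to deliver its members in step. The amount of each mature miRNA also depends on how well its own hairpin is processed and on how long the mature strand lasts, and mates can therefore differ widely in level. A miRNA selects its targets mainly through the seed at its 5′ end, so mates with different seeds act on different mRNAs. In mammals this cluster is known to lie in CLCN5 introns, and its miR-500 and miR-502 hairpins are close relatives. The comparisons below concern whether the mates kept a fixed proportion to each other and whether they moved together between the follicle types.

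The RefSeq gene table matched all 8 precursors of the members, bta-mir-502a-1 and bta-mir-502a-2 among them, and CLCN5 was the only gene that spanned them all. No other gene was listed between the first precursor and the last. In the order of the table they were MIR532, MIR188, MIR502A-2, MIR502B, MIR362, MIR500, MIR660 and MIR502A-1, so the most abundant members described below, bta-miR-660 and bta-miR-532, stood at places 7 and 1 of 8 and were not neighbours. The precursor next to MIR532 was MIR188, whose mature miRNA was the one with the fewest reads. The table is of another assembly than the one used for mapping, and only names and order were taken from it.

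With 1 value per mature miRNA, the dominant libraries held between 190385 and 311842 reads and the subordinate libraries between 306932 and 364125. Levels are given as read counts and as CPM, counts scaled to a common library size with edgeR's TMM factors, on which 3 reads are worth between 8.86 and 13.9 CPM. The intervals and limits given for reads cover counting error only. bta-miR-202, abundant in gonadal somatic cells, was at 43510 to 46751 CPM in the dominant and 11576 to 15231 CPM in the subordinate libraries. All 3 erythroid markers, bta-miR-451, bta-miR-486 and bta-miR-144, had reads, and their sum ranged from 1048 to 13091 CPM in the dominant and from 808 to 1530 CPM in the subordinate libraries, with the highest sum in dominant replicate 1. The sum of all 4 leukocyte markers ranged from 258 to 1115 CPM and from 408 to 558 CPM, that of both endothelial markers from 73.2 to 293 CPM and from 354 to 540 CPM, and that of both stromal markers from 15970 to 26285 CPM and from 19567 to 34069 CPM, in the same order of groups. No marker was without reads over the 6 libraries.

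The cluster as a whole was a small part of the granulosa cell miRNAs and was led by bta-miR-660 in every library. Its 8 members summed to 861, 790 and 1257 reads in the dominant libraries and 1655, 1789 and 1230 reads in the subordinate libraries. These were between 0.331 and 0.501% of the reads counted with 1 value per mature miRNA. On the TMM scale the sum was 3038, 3664 and 4002 CPM in the dominant libraries and 4887, 5786 and 4340 CPM in the subordinate libraries. The means were 3568 ± 489 and 5004 ± 730 CPM (SD, n = 3), a ratio of 0.713 of dominant to subordinate follicles, and every dominant library lay below every subordinate one. The order of the groups depended on the scaling: by total count alone the sum was 3313, 4149 and 4031 CPM against 5010, 4913 and 4007 CPM, so that subordinate replicate 3 fell among the dominant libraries. These levels are relative to the other reads of a library. A lower level in bulk RNA can come from fewer cells of a type, less RNA per cell or more of other miRNAs. These cannot be told apart here.

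bta-miR-660 was the member with most reads and the 1 member whose difference between the follicle types reached an adjusted p of at most 0.1. It had 598, 561 and 899 reads in the dominant libraries and 1251, 1350 and 904 reads in the subordinate libraries. On the TMM scale these were 2110, 2602 and 2863 CPM against 3694, 4367 and 3190 CPM. The dominant libraries were all lower, with dominant replicate 3 and subordinate replicate 3 the nearest of the 2 groups. By total count alone the highest dominant library, at 2947 CPM, and the lowest subordinate library, at 2945 CPM, just overlapped. The log2 fold change of dominant over subordinate follicles was -0.57 (standard error 0.20, 95% interval -1.02 to -0.12, edgeR quasi-likelihood adjusted p = 0.0734). That passed the false discovery rate of 0.1, while a call also required a log2 fold change of 1 or more in size, which it did not reach. The adjusted p rose above 0.1 when dominant replicate 1 (log2 fold change -0.46, adjusted p = 0.210), dominant replicate 2 (-0.57, 0.125), subordinate replicate 1 (-0.58, 0.167) or subordinate replicate 2 (-0.45, 0.216) was left out of the edgeR fit. Dominant replicate 1, with the lowest level of bta-miR-660, was also the library with the highest sum of erythroid markers. In subordinate replicate 3, the lowest of its group in bta-miR-660, the erythroid sum was lowest instead, at 808 CPM. The endothelial sum was lower in dominant libraries as bta-miR-660 was, but within the groups the order differed. It was 293, 199 and 73.2 CPM in the dominant libraries, where bta-miR-660 rose, and highest in subordinate replicate 3, at 540 CPM. The part of these markers in the difference was not tested.

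bta-miR-532 was the next in level, with 211, 186 and 292 reads in the dominant libraries and 318, 364 and 270 reads in the subordinate libraries. On the TMM scale it had 745, 863 and 930 CPM against 939, 1177 and 953 CPM. The groups did not overlap, but the highest dominant and the lowest subordinate library nearly met. By total count alone they overlapped, at 812, 977 and 936 CPM against 963, 1000 and 880 CPM. The log2 fold change was -0.27 (standard error 0.20, 95% interval -0.72 to 0.17, edgeR quasi-likelihood adjusted p = 0.344), a difference that did not pass the test, and -0.06 (adjusted p = 0.854) by total count alone.

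bta-miR-502b had 27, 23 and 35 reads in the dominant libraries and 55, 49 and 27 reads in the subordinate libraries, which is 95.3, 107 and 111 CPM against 162, 158 and 95.3 CPM. Subordinate replicates 1 and 2 stood above all others, and subordinate replicate 3 was as low as the lowest dominant library. The log2 fold change was -0.41 (standard error 0.31, 95% interval -1.12 to 0.29, edgeR quasi-likelihood adjusted p = 0.373). The close names of bta-miR-502a and bta-miR-502b mark them as relatives. Some names, such as bta-miR-199a-3p and bta-miR-199c, held the same level in every library, so a read could be counted under several names. Whether reads that fit both bta-miR-502a and bta-miR-502b were counted under each was not tested.

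The arms of the bta-mir-362 hairpin were both counted. The 5p arm had 8, 8 and 17 reads in the dominant libraries and 15, 12 and 17 reads in the subordinate libraries, which overlapped at 28.2 to 54.1 CPM against 38.8 to 60.0 CPM. Its log2 fold change was -0.25 (95% interval -1.20 to 0.71, edgeR quasi-likelihood adjusted p = 0.693), and it ran from -0.57 without dominant replicate 3 to -0.04 without dominant replicate 1. The 3p arm had 2, 3 and 1 reads against 1, 0 and 3 reads, at or below the limit of 3 reads in every library, and no fold change is given. The 5p arm exceeded the 3p arm in 6 of 6 libraries. The log2 ratio of 5p to 3p reads, with 1 read added to both, was 1.58, 1.17 and 3.17 in the dominant and 3.00, 3.70 and 2.17 in the subordinate libraries, with a mean of 2.47 ± 0.98 (SD, n = 6; exact sign-flip permutation test, two-sided, p = 0.03125, the smallest p that 6 libraries allow). Between the groups this ratio overlapped (exact permutation test, two-sided, p = 0.3).

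Of the low members, bta-miR-500 had 10, 4 and 6 reads in the dominant libraries and 11, 8 and 8 reads in the subordinate libraries. The groups overlapped, and the log2 fold change was -0.24 (95% interval -1.29 to 0.82, edgeR quasi-likelihood adjusted p = 0.731). Leaving out 1 library moved it between -0.61 (without dominant replicate 1) and -0.05 (without dominant replicate 2). bta-miR-502a had 4, 4 and 5 reads against 3, 5 and 0 reads, with a log2 fold change of 0.89 that ran from -0.94 to 2.71 in its 95% interval (adjusted p = 0.455). It was 0.36 without subordinate replicate 3, the library with no read, and 1.68 without subordinate replicate 2. This miRNA can come from both bta-mir-502a precursors, and their rows held the same count in every library but dominant replicate 1, with 4 reads in one and 2 in the other. bta-miR-188 had 1, 1 and 2 reads against 1, 1 and 1 reads, so no difference could be seen at this depth and none is given.

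**Figure D1:**
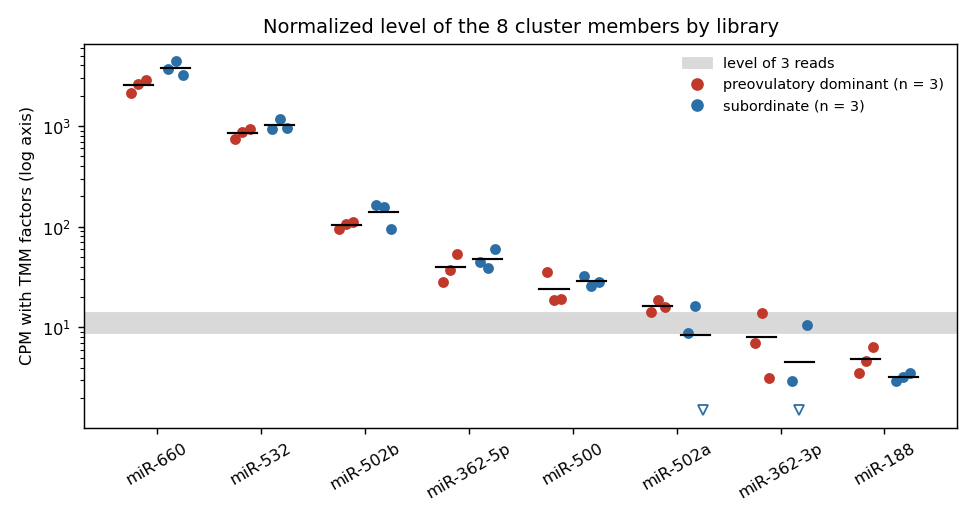
Level of each of the 8 members in each library, in CPM with TMM factors on a log axis. Red points are preovulatory dominant and blue points subordinate libraries, black lines are means of 3 libraries, the grey band is the level of 3 reads (8.86 to 13.9 CPM) and open triangles at the foot mark libraries with 0 reads. The members span from bta-miR-660, at 2110 to 4367 CPM, down to bta-miR-188, at 1 or 2 reads.

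None of the 8 members was called in edgeR's quasi-likelihood test, where a call needed a log2 fold change of 1 or more in either direction, an unadjusted p up to 0.05 and a false discovery rate up to 0.1. The same rule called 76 of all 353 tested miRNAs, or 21.5%, of which 42 were higher (11.9%) and 34 lower (9.63%) in the dominant libraries, and DESeq2 also called 0 members. By total count alone the split of all calls was 47 higher and 23 lower. At an unadjusted p under 0.05, bta-miR-660 was the 1 member that passed, with either tool. Without the fold change threshold, 1 of 8 members passed a false discovery rate of 0.1 in edgeR, bta-miR-660, against 30.3% of all tested miRNAs in either direction and 14.2% in the direction of bta-miR-660, lower in the dominant libraries. The levels of 2 members, bta-miR-660 and bta-miR-532, did not overlap between the groups, both lower in dominant follicles, on the TMM scale only. Over all tested miRNAs 36.8% did not overlap, and 18.4% were lower in dominant follicles without overlap.

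The 5 members with the most reads, bta-miR-660, bta-miR-532, bta-miR-502b, bta-miR-362-5p and bta-miR-500, had log2 fold changes between -0.57 and -0.24, all below 0, and that of bta-miR-502a was above 0. Over all tested miRNAs the median log2 fold change was -0.20, and 53.8% were below 0. Over the 194 that averaged 10 reads or more, as these members except bta-miR-500 did, the median was -0.06. Total count alone moved the median of all miRNAs by 0.19. On that scale bta-miR-660 had a log2 fold change of -0.36 (edgeR quasi-likelihood adjusted p = 0.267) and bta-miR-502b one of -0.21, while bta-miR-532, bta-miR-362-5p and bta-miR-500 were close to 0, at -0.06, -0.06 and -0.04. With TMM factors the 5 members lay on the same side, but for 4 of them the interval included 0 as well as changes larger than that of bta-miR-660.

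**Figure D2:**
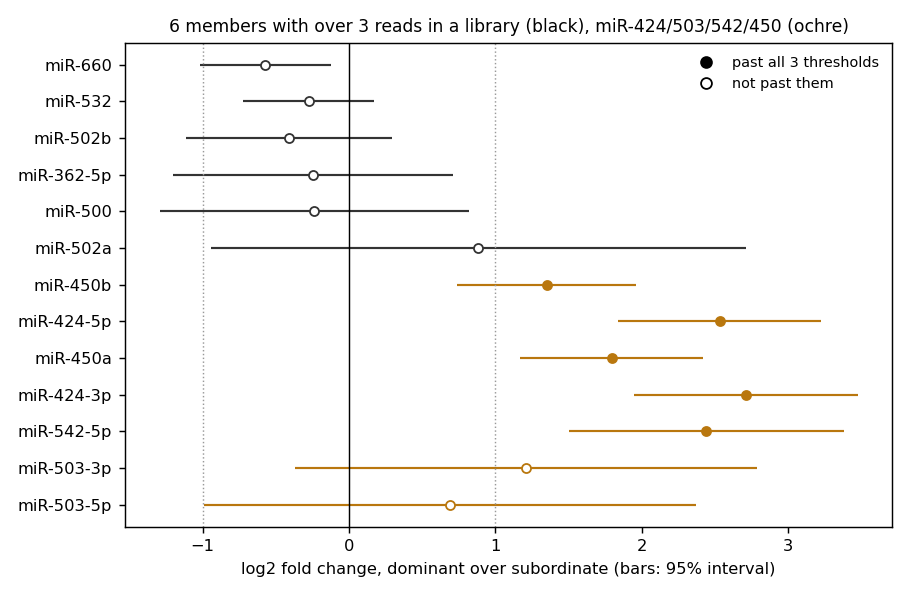
Log2 fold change of dominant over subordinate follicles with 95% intervals, for the 6 members with more than 3 reads in some library (black) and the 7 names of the cluster of miR-424, miR-503, miR-542 and miR-450 (ochre). Filled points passed all 3 thresholds and dotted lines mark 1 and -1. No cluster member is filled, and 5 of 7 comparison miRNAs are, all to the right.

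Reads of one library can be set against each other without any normalization, and the order of the mates was nearly the same in every library. bta-miR-660, bta-miR-532 and bta-miR-502b held ranks 1, 2 and 3 of the 8 members in 6 of 6 libraries. bta-miR-362-5p was above bta-miR-500 in every library but dominant replicate 1, where they had 8 and 10 reads, and their ranges over the 6 libraries overlapped, so these neighbours did not differ beyond their spread. bta-miR-500 and bta-miR-502a both had 4 reads in dominant replicate 2. The lowest 3, bta-miR-502a, bta-miR-362-3p and bta-miR-188, exchanged places between libraries. bta-miR-660 took between 69.5 and 75.6% of the cluster's reads, bta-miR-532 between 19.2 and 24.5%, bta-miR-502b between 2.20 and 3.32%, and each of the other 5 at most 1.38%. Read counts of different miRNAs also carry the preference of adapter ligation for some sequences, which was not measured.

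The share of bta-miR-532 in the cluster did not overlap between the follicle types. In the dominant libraries bta-miR-532 made up 24.5% (exact binomial 95% interval 21.7 to 27.5%), 23.5% (20.6 to 26.7%) and 23.2% (20.9 to 25.7%) of the cluster's reads. In the subordinate libraries it made up 19.2% (17.3 to 21.2%), 20.3% (18.5 to 22.3%) and 22.0% (19.7 to 24.4%). The dominant libraries were all higher, although the counting intervals of subordinate replicates 2 and 3 met those of all dominant libraries, and that of subordinate replicate 1 met those of dominant replicates 2 and 3. The share of bta-miR-660 was 70.7 ± 1.08% in the dominant and 74.8 ± 1.17% in the subordinate libraries (SD, n = 3). As both together took 94.0 to 95.8% of the cluster's reads in each library, the share of one falls as that of the other rises, and this is the same observation.

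As a log2 ratio to bta-miR-660, with 1 read added to both, bta-miR-532 was at -1.50, -1.59 and -1.62 in the dominant libraries and -1.97, -1.89 and -1.74 in the subordinate libraries. The difference of the means was 0.30 on the log2 scale (dominant -1.57 ± 0.06, subordinate -1.87 ± 0.12; SD, n = 3). It was larger than the spread in either group and than the counting error of a single ratio, a standard error of 0.085 to 0.12. The exact permutation test gave p = 0.1, the smallest that 3 libraries against 3 allow, and 0.233 after Benjamini-Hochberg adjustment over the 7 ratios to bta-miR-660, so the design could not reach 0.05. Over the 6 libraries the pair varied from 0.255 to 0.354 reads of bta-miR-532 for each read of bta-miR-660.

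The ratio of bta-miR-502b to bta-miR-660 overlapped between the groups. It was -4.42, -4.55 and -4.64 in the dominant and -4.48, -4.76 and -5.01 in the subordinate libraries on the log2 scale, a difference of 0.21 (exact permutation test, p = 0.3, adjusted p = 0.42) that ran from 0.08 without subordinate replicate 3 to 0.35 without subordinate replicate 1. Within pairs of the same replicate number it was higher in the dominant library by 0.06, 0.21 and 0.37, and bta-miR-532 by 0.47, 0.30 and 0.12 (exact sign-flip permutation test, p = 0.25 for each, the smallest that 3 pairs allow). Its SD over all 6 libraries, 0.22, lay within the counting error of a single ratio, 0.20 to 0.30. For bta-miR-362-5p the difference was 0.33 (SD over 6 libraries 0.40, counting error 0.34 to 0.48; exact permutation test, p = 0.4, adjusted p = 0.467), and it ran from 0.08 without subordinate replicate 2 to 0.61 without subordinate replicate 3. For bta-miR-500 it was also 0.33 (SD over 6 libraries 0.50, counting error 0.42 to 0.65; exact permutation test, p = 0.6, adjusted p = 0.6), and it ran from -0.047 without dominant replicate 1 to 0.57 without dominant replicate 3. A shift as small as that of bta-miR-532 could not have been seen in bta-miR-362-5p or bta-miR-500 at this depth. For bta-miR-502b such a shift, 0.30, was no larger than the upper end of the counting error of a single ratio. Its overlap therefore does not show that it kept its proportion.

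The 3 lowest members give no usable proportion. bta-miR-188 and bta-miR-502a were higher relative to bta-miR-660 in all dominant libraries (exact permutation test, p = 0.1 and adjusted p = 0.233 for each), and bta-miR-362-3p overlapped (exact permutation test, p = 0.2, adjusted p = 0.35). With 5 reads or fewer of these mates in each library, the ratio followed the reads of bta-miR-660 and the read that was added. In all, 3 of 7 ratios to bta-miR-660 did not overlap between the groups, and over all tested miRNAs 42.0% of such ratios did not.

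**Figure D3:**
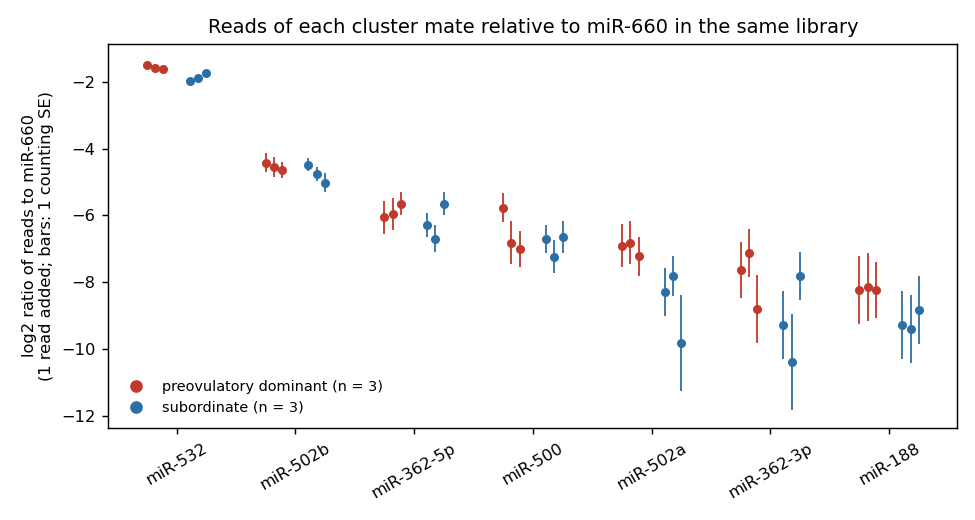
Log2 ratio of the reads of each other member to those of bta-miR-660 in the same library, 1 read added to both. Red points are preovulatory dominant and blue points subordinate libraries, and bars are 1 standard error from counting. The groups of bta-miR-532 are apart by 0.30 with short bars, while the bars of bta-miR-502a, bta-miR-362-3p and bta-miR-188 are long.

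How closely the mates moved together was measured against all other miRNAs. For the 193 other miRNAs that averaged 10 reads or more, log2 CPM was centred on the mean of the 6 libraries, and the root mean square difference from the centred values of bta-miR-660 was taken. bta-miR-532 ranked 8 of 193 with 0.17, bta-miR-502b 15 with 0.20 and bta-miR-362-5p 50 with 0.36. The other 4 members had too few reads to be ranked. The most alike were bta-miR-140 at 0.096, bta-miR-93 at 0.10 and bta-miR-146b at 0.13, none of which is a cluster member. This is a description over 6 libraries that share their scaling, and the rank of a miRNA with few reads is limited by its counting error.

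In the centred values bta-miR-660 was at -0.53, -0.23 and -0.09 in the dominant and 0.28, 0.52 and 0.06 in the subordinate libraries. bta-miR-532 was at -0.31, -0.10 and 0.01 in the dominant and 0.02, 0.35 and 0.04 in the subordinate libraries, so it had the same lowest and highest library and a narrower range. bta-miR-502b was at -0.31, -0.15 and -0.09 and then 0.44, 0.41 and -0.31, which left bta-miR-660 mainly in subordinate replicate 3.

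**Figure D4:**
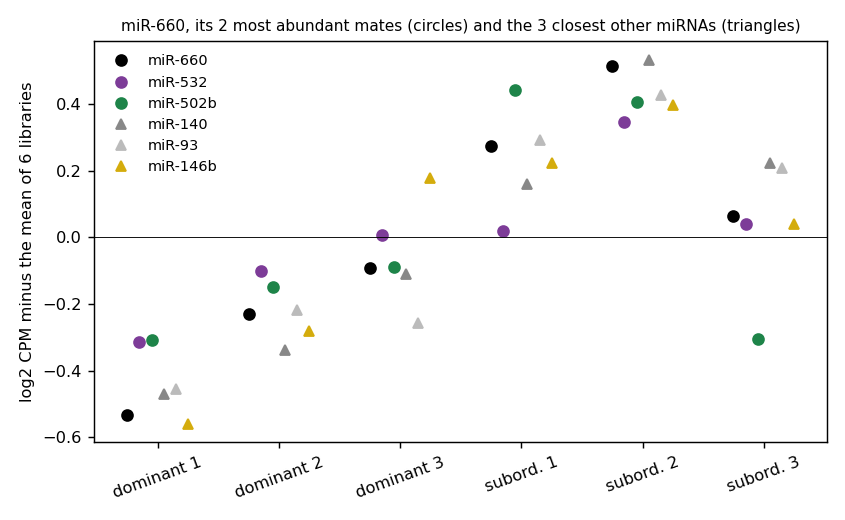
Log2 CPM of each library minus the mean of the 6 libraries for bta-miR-660, bta-miR-532 and bta-miR-502b (circles) and for the 3 miRNAs closest to bta-miR-660, bta-miR-140, bta-miR-93 and bta-miR-146b (triangles). bta-miR-660 and bta-miR-532 are lowest in dominant replicate 1 and highest in subordinate replicate 2, and bta-miR-502b falls to -0.31 in subordinate replicate 3.

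The cluster of miR-424, miR-503, miR-542 and miR-450, which the RefSeq table also places on the X chromosome, served as a comparison. Of its 7 names in the files, 5 were called higher in the dominant libraries at the same thresholds, against 11.9% of all tested miRNAs, where 0 of 8 members of the CLCN5 cluster were called. bta-miR-424-5p rose by 2.53 on the log2 scale (standard error 0.30, edgeR quasi-likelihood adjusted p = 5.0e-04). Its log2 ratio to bta-miR-660 was -0.44, -0.96 and -0.47 in the dominant and -4.22, -3.99 and -3.01 in the subordinate libraries, a difference of 3.12 without overlap (exact permutation test, p = 0.1, the smallest that 3 libraries against 3 allow). As bta-miR-424-5p was itself called higher in the dominant libraries, a large difference followed from its own change. It is therefore no test of whether mates move together. The same difference for bta-miR-532 against bta-miR-660, mates of one cluster, was 0.30. That is a ratio within a cluster, while the ratio of bta-miR-424-5p to bta-miR-660 is one between clusters, so they are not alike. Within the comparison cluster, bta-miR-450b and bta-miR-424-5p, its members with most reads, had log2 fold changes of 1.35 and 2.53. By the root mean square difference above, bta-miR-140 and bta-miR-93, which are not members, were closer to bta-miR-660 than bta-miR-532 was.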

How the data were processed

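Small RNA libraries of granulosa cells were made by the authors with the TruSeq protocol from pooled RNA. Reads were base-called with CASAVA 1.8.0, checked with FastQC, trimmed with Cutadapt and Seqtk, mapped to the bovine genome (UMD3.1) with Bowtie and assigned to the bovine miRNAs in miRBase by miRDeep2. The deposited values are raw read counts, without normalization, with 906 rows of mature miRNA and precursor for 755 mature names in each file. The largest row of each name was used. Replicates within a group were checked for identical libraries, and none were found.

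Counts were tested with edgeR 4.0.16 (R 4.3.3): TMM factors, quasi-likelihood fit on follicle type, Benjamini-Hochberg adjustment over the 353 miRNAs that had reads in 2 or more of the 3 replicates of either group. The thresholds follow the study's methods. The standard error was taken as the size of the change over the square root of F, and intervals use it with the t distribution, so for miRNAs with few reads they need not match the p-value exactly. DESeq2 1.42.0, other scalings, filters, summed precursor rows, left-out replicates and the replicate number as a block were the alternatives. Same-numbered samples deviated together from their group means, with correlations of 0.14, 0.38 and 0.41 over 194 miRNAs averaging 10 reads or more. The lowest of these, for replicate 1, was below the 0.19 of dominant replicate 2 with subordinate replicate 1. The main tests were unpaired. The numbers were taken as pairs only in the replicate block and in the sign-flip tests of ratios within pairs. The sign-flip test of the bta-mir-362 arms took all libraries as independent. Ratios were tested by exact permutation with Python 3.11.15 and scipy 1.17.1. The fitting code was tested on simulated data.

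The members, the marker and comparison lists and the tests were chosen with earlier results of these data known. The naming rule took all members, the 3 miRNAs most like bta-miR-660 and bta-miR-424-5p. Its part on shared seeds was not used here, since no mature sequences were at hand. The labels number the replicates, and that they are pools is taken from the study's methods. Those do not say how the follicles were divided among the pools. The p-values measure only the spread between the replicates.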

Additional observations from a re-analysis of the deposited data

How the results depend on the processing

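The number of members past all thresholds was 0 in edgeR's quasi-likelihood test (1 at an unadjusted p under 0.05), and 0 with DESeq2 and every other scaling, filter, left-out replicate and stricter false discovery rate that was run. It became 1 when the fold change threshold was dropped, bta-miR-660. bta-miR-660 was lower in preovulatory dominant follicles under all 14 alternatives, from -0.69 to -0.36 on the log2 scale, with adjusted p between 0.0265 and 0.267. Its adjusted p stayed at or below 0.1 in 9 of them. It did not by total count alone (-0.36) or without dominant replicate 1 or 2 or subordinate replicate 1 or 2; over all left-out replicates it ran from -0.69 to -0.45. The cause was not tested. With the replicate block, 0 members were called, so no call of a member changed, while the calls over all miRNAs went from 76 to 71. In that fit bta-miR-660 had a log2 fold change of -0.57 (adjusted p = 0.0984 from edgeR). The ratios to bta-miR-660 tested within pairs, added after seeing the data, gave p = 0.25 or 0.5 (exact sign-flip permutation test). The log2 ratio of bta-miR-532 to bta-miR-660 was higher in dominant follicles under all 8 alternatives planned, by 0.25 to 0.36, and that of bta-miR-424-5p by 2.88 to 3.49 without 1 replicate. For bta-miR-500 the difference reversed to -0.047 without dominant replicate 1 and was as high as 0.57 without dominant replicate 3. The 5p to 3p ratio of bta-miR-362 stayed between 2.22 and 2.73 without 1 replicate, where the smallest p that 5 libraries allow is 0.0625 in the exact sign-flip permutation test. Filters that asked for more reads left 4 members. Depth limits bta-miR-188, bta-miR-362-3p and bta-miR-502a most, with at most 5 reads in a library.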
